A study of Mus musculus with 39 samples.

Results

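The comparison described here asks whether the lungs of mice without Cd177 responded to acute pancreatitis (AP) differently from the lungs of wild-type (WT) mice. For each gene, a response was taken as its mean in AP minus its mean after a sham operation, and the difference between genotypes was the response of the Cd177 KO mice (KO) minus the response of the WT mice. A positive difference therefore means that the AP minus sham step was more upward in KO. All 20 lung libraries of the series entered, out of 39 libraries in all, the others being colon libraries that were not used here. There were 5 libraries each of KO lung in AP, KO lung after sham operation, WT lung in AP and WT lung after sham operation. All mice had the C57BL/6N strain background, and the sham groups also had an operation. The labels give neither the agent that caused AP nor the time of sampling, and they do not say how the Cd177 allele was made or whether each library came from a separate animal. The p-values therefore measure the spread between libraries, which may be partly technical.

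Of 55357 genes in the lung table, 15978 had at least 1 FPKM (fragments per kilobase of transcript, scaled to the sequencing depth of the library) in at least 4 lung libraries and were tested. The 279 genes that reached 1 FPKM in exactly 4 libraries lay just inside this limit, and 337 genes that reached it in 3 lay just outside, while 12225 genes reached it in every library. Changes and differences are on the log2(FPKM + 1) scale, which understates those of genes with low values.

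Acute pancreatitis is an inflammation of the pancreas in which mediators released into the blood can injure the lung, where neutrophils and monocytes enter the alveolar walls and the barrier leaks. CD177 is a glycoprotein on the surface of a subset of neutrophils that binds PECAM1 on endothelial cells and takes part in their passage out of vessels. A response that differs between genotypes can be a gene moved by AP in one of them alone, or a gene moved in opposite directions.

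Cd177 itself showed the genotypes as labelled. It was listed at 0 FPKM in all 5 KO AP libraries and in all 5 KO sham libraries. In WT AP it was at 2.1, 3.37, 2.36, 3.92 and 4.18 FPKM, and in WT sham at 3.59, 1.75, 2.02, 1.3 and 1.39 FPKM. The highest WT sham library lay inside the range of the WT AP libraries. Since the KO response was 0, the difference of -0.49 ± 0.23 (SE; limma adjusted p = 0.573) was the WT response with its sign turned.

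The recovered read totals lay at 77.01 to 95.43 M reads for KO and at 57.89 to 71.23 M reads for WT, without overlap between the genotypes. Lung markers were present in every library, with Sftpc, a surfactant gene of alveolar type 2 cells, at 10200 to 71300 FPKM in KO and at 13700 to 27900 FPKM in WT. Their levels were not all alike. The endothelial gene Cdh5 was at 21 to 103 FPKM in KO and at 183 to 292 FPKM in WT. Pecam1, also endothelial, was at 52.2 to 176 FPKM in KO and at 199 to 301 FPKM in WT. The other lung markers overlapped, with the ciliated cell gene Foxj1 at 25.1 to 149 FPKM in KO and at 38.1 to 51.6 FPKM in WT. The pancreatic enzyme gene Cpa1 was at most 0.0748 FPKM. Libraries of 1 group resembled each other less in KO, with a mean correlation to their own group between 0.929 and 0.962, against 0.968 to 0.988 in WT. Accordingly, the median SD within a group was 0.262 in KO AP and 0.322 in KO sham, against 0.171 in WT AP and 0.144 in WT sham on the log2 scale. The library KO AP 3 stood apart, with 144 FPKM of the adipocyte gene Adipoq, 424 FPKM of the cardiac myosin gene Myh6 and 130 FPKM of the squamous keratin gene Krt13. KO sham 4 took 0.544% of its FPKM from neutrophil genes, the most of any library, and KO sham 5 had the lowest KO read total and the fewest genes above 0, at 21471. Values are given with all libraries, and also without these 3 where leaving them out moved a value named here by over 1.5 times. The 3 were picked from these same data, so values without them are no independent check. KO sham 1 also differed from the rest but stayed in those values. It had the lowest Cdh5, Pecam1 and Sftpc of any library, at 21, 52.2 and 10200 FPKM, and the highest Foxj1, at 149 FPKM. Its shares of NRF2 target and unfolded protein response genes, 0.897% and 0.614% of the FPKM, were also the highest.

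No gene passed the threshold for a difference between the responses. Of 15978 genes, 0 had an adjusted p under 0.05 (0%; limma with Benjamini-Hochberg adjustment), and the lowest adjusted p was 0.103. At an unadjusted p under 0.05 there were 1384 genes (8.66%), of which 665 had a positive difference (4.16%) and 719 a negative difference (4.5%). A difference of any size was negative in 46.7% of the genes and positive in 53.3%, with a median of 0.024. An absolute difference of at least 1, which is a 2-fold difference between the responses, was seen in 295 genes (1.85%). None of the values below therefore stands for a change that passed over all genes, and they are given as measurements with their errors.

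The intervals show how precisely the difference of a single gene was measured. They are not adjusted for the number of genes tested, so larger differences than these could also miss the threshold. Errors of the KO response, the WT response and their difference all rest on a spread per gene that is shared by all groups. Since KO libraries spread more than WT libraries, the error given for a KO response may be too small and that for a WT response too large. The 95% interval of the difference reached 0.480 to either side in the median gene, with quartiles of 0.376 and 0.637. For 94.88% of the genes it reached less than 1 to either side. The SD of the responses across genes was 0.3 in KO and 0.223 in WT, and Pearson's r between the KO and WT responses was 0.0276 across the 15978 genes, which are not independent replicates. Of the 1384 genes with an unadjusted p under 0.05, 683 had a KO response below 0 and a WT response above 0, a combination seen in 24.7% of all genes. A further 553 had a KO response above 0 and a WT response below 0, likewise seen in 24.7% of all genes, and in 146 the responses had the same sign. A difference is largest where the signs are opposite, so these counts follow in part from how the genes were chosen. The difference had a Spearman correlation of 0.175 with transcript length over 15879 genes, against 0.0824 for the KO response and -0.197 for the WT response, and the part of this in any single gene was not tested.

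**Figure D1:**
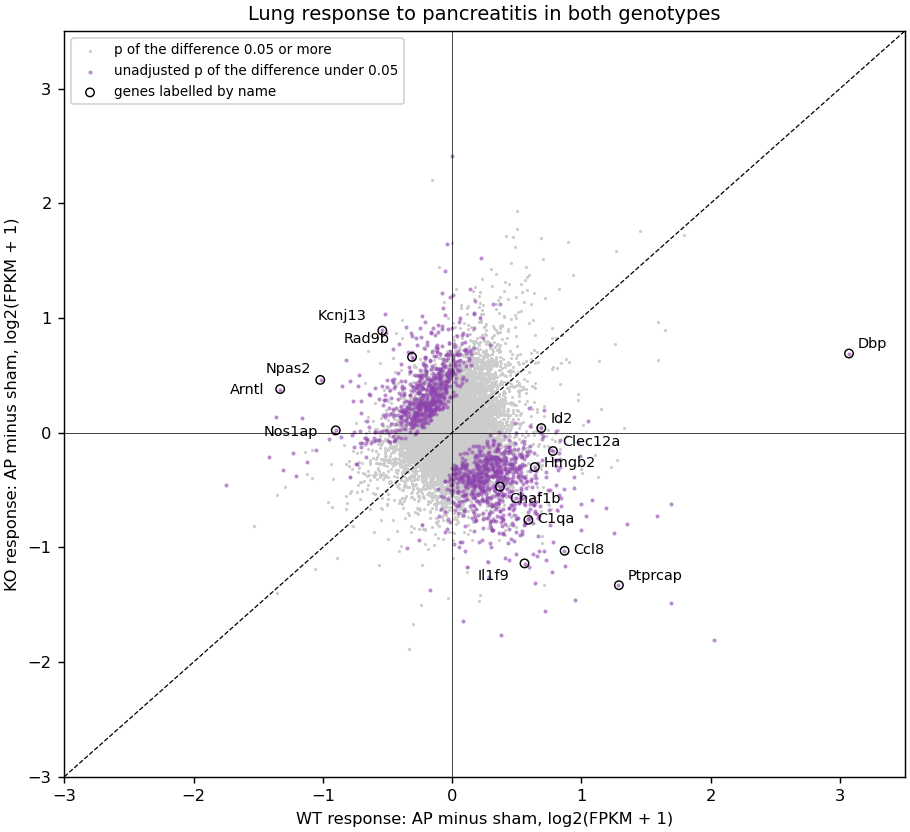
Each point is 1 of the 15978 genes, with its WT response (AP minus sham, log2) on the x axis and its KO response on the y axis; the dashed line marks equal responses, purple points are the 1384 genes with an unadjusted p under 0.05 for the difference, and rings mark 14 genes by name. The cloud shows no slope (r = 0.0276), and purple points lie mainly in the quadrants where the responses have opposite signs.

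Among genes with a positive difference, Kcnj13 had the lowest p of all 15978 genes. It encodes Kir7.1, an inwardly rectifying potassium channel of epithelia. It was at 7.46, 9.2, 4.41, 8.23 and 7.94 FPKM in KO AP and at 3.97, 3.88, 4.7, 2.93 and 2.23 FPKM in KO sham. In WT it was at 3.18, 4.08, 4.6, 2.58 and 3.74 FPKM in AP and at 4.91, 6.79, 6.02, 5.48 and 5.3 FPKM in sham. In KO the AP libraries were the higher ones and overlapped sham only through KO AP 3, while in WT every AP library lay below every sham library. The KO response was 0.89 ± 0.17 and the WT response -0.54 ± 0.17, a difference of 1.43 ± 0.24 (SE; 95% interval 0.92 to 1.94; limma adjusted p = 0.103). Without KO AP 3 the difference was 1.59 with an adjusted p of 0.0077, and without KO AP 3, KO sham 4 and KO sham 5 it was 1.37 with an adjusted p of 0.0114 (limma). Over all alternatives tried the adjusted p of Kcnj13 lay between 0.0077 and 0.277. Exons of Kcnj13 overlap those of Gigyf2 on the opposite strand, and whether strand was used in counting is not given, so reads of these genes may not be separable.

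Agmo and Kyat1, enzymes of lipid and amino acid metabolism, had values that were high in KO AP alone. Agmo, which cleaves ether lipids, was at 8.18, 10.5, 9.56, 9.03 and 8.57 FPKM in KO AP, at 5.3, 5.72, 7.08, 4.83 and 5.14 FPKM in KO sham, at 4.34, 4.81, 4.54, 4.28 and 5.09 FPKM in WT AP and at 5.34, 5.74, 3.96, 5.28 and 6.58 FPKM in WT sham. All 5 KO AP libraries exceeded every other library. The difference was 0.80 ± 0.16 (95% interval 0.47 to 1.13; limma adjusted p = 0.184). Kyat1, a kynurenine aminotransferase, was at 16.1, 17, 14.4, 15.6 and 15.3 FPKM in KO AP, at 11.2, 13.4, 11.8, 10.7 and 9.64 FPKM in KO sham, at 9.04, 7.69, 8.51, 9.66 and 9.97 FPKM in WT AP and at 11, 10.1, 10, 9.88 and 10.3 FPKM in WT sham. Again every KO AP library lay above all others, and the WT groups overlapped. Its difference was 0.62 ± 0.13 (95% interval 0.35 to 0.88; limma adjusted p = 0.233).

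Hlcs and Ppp2r3a were the genes of this group whose KO sham libraries were the low ones. Hlcs, which attaches biotin to carboxylases, was at 3.38, 4.1, 4.78, 4.04 and 3.1 FPKM in KO AP, at 1.9, 2.32, 2.61, 2.51 and 1.95 FPKM in KO sham, at 3.74, 3.97, 5.17, 3.14 and 4.33 FPKM in WT AP and at 4.73, 5.81, 4.19, 5.07 and 4.21 FPKM in WT sham. KO sham lay below every other library. Ppp2r3a, a regulatory subunit of protein phosphatase 2A, averaged 4.63 ± 0.81 FPKM in KO AP, 2.73 ± 0.698 FPKM in KO sham, 5.05 ± 0.625 FPKM in WT AP and 6.04 ± 0.364 FPKM in WT sham (SD, n = 5 each). The differences were 0.78 ± 0.17 for Hlcs and 0.83 ± 0.19 for Ppp2r3a, both with a limma adjusted p of 0.269.

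In Nos1ap and Maml3 the step lay in WT. Nos1ap, an adaptor of neuronal nitric oxide synthase, was at 2.27, 2.45, 1.9, 1.18 and 2.17 FPKM in WT AP and at 5.77, 3.58, 5.87, 4.69 and 3.25 FPKM in WT sham, without overlap. In KO it was at 0, 0.119, 0.101, 0.0175 and 0.264 FPKM in AP and at 0.0906, 0.0667, 0.0282, 0.224 and 0 FPKM in sham, so a KO response could hardly be measured, and the difference of 0.92 ± 0.21 (limma adjusted p = 0.269) rests on WT. Maml3, a coactivator of Notch signalling, was at 1.96, 2.02, 1.52, 1.68 and 1.66 FPKM in KO AP, at 1.18, 1.49, 1.65, 1.83 and 1.41 FPKM in KO sham, at 3.78, 3.86, 3.46, 3.07 and 3.86 FPKM in WT AP and at 5.17, 5.2, 5.67, 5.79 and 4.72 FPKM in WT sham. The WT groups did not overlap, and the KO groups did, with a difference of 0.60 ± 0.14 (limma adjusted p = 0.269). In Dnajb13 and Rad9b the responses had opposite signs, at 0.45 in KO and -0.79 in WT for Dnajb13 and at 0.66 in KO and -0.31 in WT for Rad9b. Dnajb13, a radial spoke protein of motile cilia, was at 10.5, 11.9, 7.19, 13.7 and 10.4 FPKM in KO AP, at 12.2, 8.57, 6.78, 5.69 and 5.57 FPKM in KO sham, at 5.72, 4.8, 7.05, 7.11 and 7.08 FPKM in WT AP and at 14, 13.5, 12.8, 8.16 and 10.6 FPKM in WT sham. WT AP lay below WT sham throughout, and the difference was 1.24 ± 0.27 (limma adjusted p = 0.269). Rad9b, a relative of the DNA damage checkpoint protein RAD9A, averaged 2.33 ± 0.749 FPKM in KO AP, 1.08 ± 0.341 FPKM in KO sham, 1.31 ± 0.327 FPKM in WT AP and 1.85 ± 0.172 FPKM in WT sham, with a difference of 0.97 ± 0.21 (limma adjusted p = 0.269). Exons of Dnajb13 overlap those of Ucp2, and exons of Rad9b those of Pptc7, on the opposite strand.

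Among genes with a negative difference, several of those with the lowest p are expressed in leukocytes. Clec12a, an inhibitory lectin receptor of myeloid cells, was at 4.48, 4.77, 4.36, 4.64 and 3.06 FPKM in KO AP, at 4.62, 3.97, 3.94, 5.43 and 6.7 FPKM in KO sham, at 4.28, 3.97, 3.96, 3.2 and 3.58 FPKM in WT AP and at 2.18, 1.57, 1.84, 1.97 and 1.44 FPKM in WT sham. WT sham was the group that lay apart, below all 15 other libraries. The KO response was -0.16 ± 0.13 and the WT response 0.78 ± 0.13, a difference of -0.94 ± 0.19 (95% interval -1.33 to -0.56; limma adjusted p = 0.184). In Id2, a regulator of innate lymphoid and NK cell development, the step also lay in WT. It was at 49.6, 40.5, 53, 48.5 and 46.6 FPKM in KO AP, at 38.8, 39.1, 46.5, 53.6 and 55.5 FPKM in KO sham, at 62.5, 53.6, 57.8, 64.6 and 50.2 FPKM in WT AP and at 32.1, 35.2, 41.3, 37.8 and 31.1 FPKM in WT sham. The WT groups did not overlap and the KO groups did, with a difference of -0.65 ± 0.17 (limma adjusted p = 0.442).

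In a second set the responses had opposite signs. Ccl8, a chemokine that attracts monocytes, was at 5.42, 0.92, 2.15, 2.37 and 1.77 FPKM in KO AP, at 6.34, 7.03, 3.55, 3.87 and 8.79 FPKM in KO sham, at 3.93, 4.87, 2.13, 1.09 and 3.53 FPKM in WT AP and at 1.9, 0.879, 0.713, 1.34 and 0.955 FPKM in WT sham. The groups overlapped in each genotype, in KO through KO AP 1 alone. Its KO response was -1.03 ± 0.30 and its WT response 0.87 ± 0.30, a difference of -1.89 ± 0.43 (95% interval -2.79 to -1; limma adjusted p = 0.269). C1qa, a chain of complement C1q made by macrophages, was at 43.6, 30.5, 32.2, 35.2 and 30.2 FPKM in KO AP, at 36.5, 56.7, 66.4, 54.6 and 88.3 FPKM in KO sham, at 39, 47.6, 35.4, 24.5 and 33.2 FPKM in WT AP and at 33.7, 17.2, 17.7, 20.3 and 31.3 FPKM in WT sham. The 4 libraries with the highest values were all KO sham. The difference was -1.34 ± 0.31 (95% interval -2 to -0.69; limma adjusted p = 0.308).

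Ptprcap, which associates with the lymphocyte phosphatase CD45, was at 2.91, 0.341, 0.562, 1.9 and 1.34 FPKM in KO AP, at 1.72, 3.11, 3.69, 3.43 and 22.8 FPKM in KO sham, at 3.78, 3.59, 4.89, 6.58 and 3.91 FPKM in WT AP and at 2.49, 0.778, 0.908, 1.08 and 1.26 FPKM in WT sham. KO sham 5 lay far above the rest. The difference was -2.62 ± 0.59 (limma adjusted p = 0.269) and -1.90 ± 0.40 without KO AP 3, KO sham 4 and KO sham 5 (adjusted p = 0.114). Ptprcap shares exon sequence with Coro1b on the same strand and with Rps6kb2 on the opposite strand, so its level is uncertain. Il1f9, which encodes the epithelial cytokine interleukin 36 gamma, averaged 5.78 ± 3.41 FPKM in KO AP, 13.9 ± 6.47 FPKM in KO sham, 3.38 ± 1.17 FPKM in WT AP and 1.91 ± 0.504 FPKM in WT sham. Its difference was -1.70 ± 0.44 (limma adjusted p = 0.442). Crlf2, a subunit of the receptor for thymic stromal lymphopoietin, averaged 19.6 ± 4.56 FPKM in KO AP, 34.3 ± 12 FPKM in KO sham, 20.8 ± 1.75 FPKM in WT AP and 17.1 ± 1.53 FPKM in WT sham, with a difference of -1.01 ± 0.26 (limma adjusted p = 0.442).

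The remaining named genes of this direction were Serpinb9, Hmgb2 and Chaf1b. Serpinb9, an inhibitor of granzyme B, was at 19.8, 19.7, 20.4, 20.6 and 16.8 FPKM in KO AP, at 26.6, 23.6, 26.1, 25.7 and 24.6 FPKM in KO sham, at 33.7, 30.3, 31.3, 28.1 and 33.4 FPKM in WT AP and at 29.7, 26.7, 28, 31 and 31 FPKM in WT sham. KO AP lay below all other libraries, and the WT groups overlapped. The difference was small and had a narrow interval, at -0.46 ± 0.12 (95% interval -0.70 to -0.22; limma adjusted p = 0.442). Hmgb2, a chromatin protein abundant in dividing cells, averaged 18.7 ± 1.65 FPKM in KO AP, 23.8 ± 5.86 FPKM in KO sham, 27.4 ± 6.13 FPKM in WT AP and 17.1 ± 3.05 FPKM in WT sham, with a difference of -0.94 ± 0.23 (limma adjusted p = 0.371). Chaf1b, a subunit of the factor that assembles nucleosomes behind the replication fork, averaged 2.39 ± 0.54 FPKM in KO AP, 3.68 ± 0.552 FPKM in KO sham, 2.48 ± 0.616 FPKM in WT AP and 1.67 ± 0.38 FPKM in WT sham, with a difference of -0.84 ± 0.22 (limma adjusted p = 0.442).

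**Figure D2:**
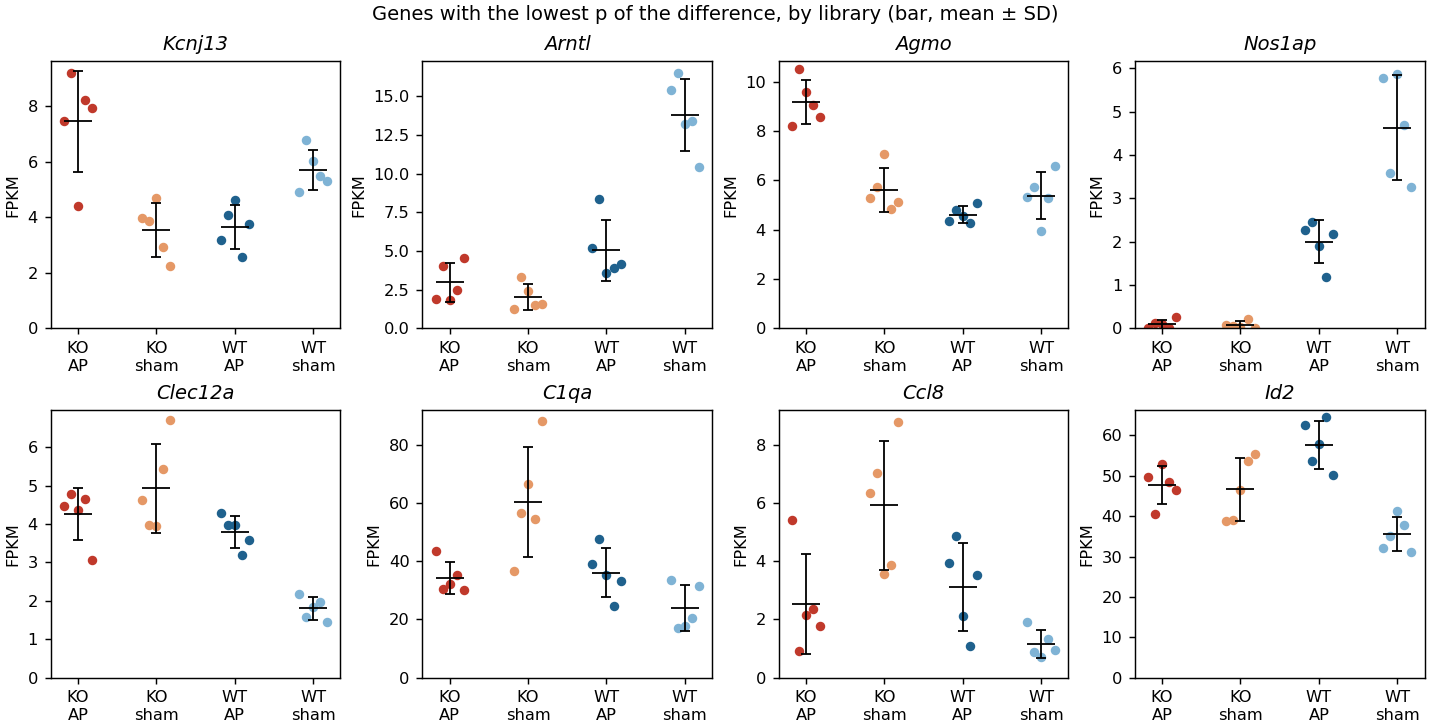
FPKM of 8 genes in each lung library (y axis from 0), by group on the x axis with KO AP and KO sham left of WT AP and WT sham; bars are the mean ± SD of 5 libraries. Agmo was high in KO AP alone, Arntl was high in WT sham alone, Nos1ap was near 0 in KO and higher in WT sham than in WT AP, and Clec12a was low in WT sham alone.

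Arntl, a gene of the circadian clock, had the fourth lowest p of all genes tested. The clock is a loop in which BMAL1 (gene Arntl) with CLOCK or NPAS2 drives the period, cryptochrome and Nr1d genes through E-box sequences, and the receptors encoded by Nr1d1 and Nr1d2 repress Arntl. Dbp, Tef and Hlf are output factors of the loop, and NFIL3 acts against them. Because the transcripts cycle over the day, their level depends on the hour of sampling, which the labels do not give.

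The promoters of Arntl and Cry1 are shown because the loop acts on them through these elements. Both are from RefSeq on GRCm38.p6, written in the direction of the gene, and reach to either side of an annotated start. In the Arntl promoter (chr7:113207261-113207560, plus strand) capitals mark the element AGGTCA bound by NR1D receptors, and in the Cry1 promoter (chr10:85185005-85185304, minus strand) they mark the E-box CACGTG.
Arntl: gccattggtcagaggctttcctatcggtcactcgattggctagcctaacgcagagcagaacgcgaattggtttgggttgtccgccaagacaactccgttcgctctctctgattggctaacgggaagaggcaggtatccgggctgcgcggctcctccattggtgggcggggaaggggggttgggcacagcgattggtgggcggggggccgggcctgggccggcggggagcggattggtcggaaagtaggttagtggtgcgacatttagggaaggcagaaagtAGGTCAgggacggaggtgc
Cry1: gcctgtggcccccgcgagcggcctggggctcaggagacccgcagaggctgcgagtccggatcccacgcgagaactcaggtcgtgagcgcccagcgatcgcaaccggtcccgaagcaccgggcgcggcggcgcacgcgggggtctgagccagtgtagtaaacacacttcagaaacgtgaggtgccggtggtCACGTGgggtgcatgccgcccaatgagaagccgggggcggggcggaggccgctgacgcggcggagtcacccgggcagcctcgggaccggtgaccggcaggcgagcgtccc
Searched on both strands, CACGTG occurs in 7.15% and AGGTCA in 16.3% of 32851 mouse promoters of this length, and the letters alone do not show that a factor binds. Of 16 clock genes with a promoter in the table, 5 had CACGTG in at least 1 window, 5 had AGGTCA and 7 had neither, Npas2, Dbp, Nr1d1, Per3 and Cry2 among the last. A second Arntl window, from another annotated start, also had neither.

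Arntl was at 1.93, 4.04, 1.85, 2.47 and 4.57 FPKM in KO AP and at 1.28, 3.33, 2.4, 1.53 and 1.61 FPKM in KO sham. In WT it was at 5.17, 8.39, 3.56, 3.92 and 4.14 FPKM in AP and at 15.4, 16.5, 13.2, 13.4 and 10.4 FPKM in sham. The WT sham libraries lay above all 15 others, and the KO groups overlapped at a low level. The KO response was 0.38 ± 0.22 and the WT response -1.33 ± 0.22, a difference of 1.71 ± 0.32 (95% interval 1.04 to 2.37; limma adjusted p = 0.125). Over the alternatives tried, the adjusted p of Arntl lay between 0.0558 and 0.370, and none passed. Its exons overlap a predicted gene on the opposite strand.

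A list of clock genes grouped with Arntl held the activators Arntl, Clock and Npas2 and the repressors Cry1 and Nfil3, a mixed grouping made with results of these data known. All 5 had a positive difference, set beside 53.3% of all genes, and 5 of 5 had an unadjusted p under 0.05, set beside 4.16%. The median difference was 0.98, with median responses of 0.01 in KO and -1.02 in WT, and it was 0.69 without KO AP 3, KO sham 4 and KO sham 5. Npas2, which can replace CLOCK, was at 2.58, 4.89, 1.14, 2.16 and 2.56 FPKM in KO AP, at 2.26, 3.18, 2.05, 0.829 and 0.377 FPKM in KO sham, at 1.46, 2.69, 1.25, 1.47 and 1.44 FPKM in WT AP and at 6.08, 8.01, 3.73, 4.2 and 1.66 FPKM in WT sham. WT sham held the highest values but spread widely and reached into WT AP. The difference was 1.47 ± 0.46 (limma adjusted p = 0.454).

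Cry1, a cryptochrome that represses CLOCK and BMAL1, was at 9.22, 11, 11.1, 8.76 and 10.9 FPKM in KO AP, at 9.68, 10.1, 11.7, 10.1 and 8.96 FPKM in KO sham, at 7.12, 5.53, 4.51, 3.3 and 5.36 FPKM in WT AP and at 12.5, 12.9, 7.62, 8.05 and 6.63 FPKM in WT sham. The KO groups were level with each other, and WT AP held the low values. The difference was 0.77 ± 0.24 (limma adjusted p = 0.466). Nfil3 averaged 6.93 ± 1.66 FPKM in KO AP, 9.28 ± 3.9 FPKM in KO sham, 3.06 ± 0.946 FPKM in WT AP and 9.12 ± 2.8 FPKM in WT sham, with a difference of 0.98 ± 0.33 (limma adjusted p = 0.478), and Clock had a difference of 0.32 ± 0.15.

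A list of clock genes grouped with Dbp was less uniform. Of its 13 genes 9 had a negative difference, beside 46.7% of all genes, with a median of -0.22 that was -0.07 without the 3 libraries, and Dbp alone had an unadjusted p under 0.05. Dbp was at 67.3, 41.9, 90.4, 65.3 and 27.9 FPKM in KO AP and at 33.9, 12.4, 28.5, 36.1 and 91.9 FPKM in KO sham. In WT it was at 54.6, 26.6, 77.9, 69.8 and 49.3 FPKM in AP and at 3.29, 1.32, 4.78, 8.66 and 17.6 FPKM in sham. WT sham lay below all other groups but for KO sham 2, which was at 12.4 FPKM and below WT sham 5, and KO AP and KO sham overlapped. The KO response was 0.69 ± 0.50 and the WT response 3.07 ± 0.50, a difference of -2.38 ± 0.71 (95% interval -3.87 to -0.90; limma adjusted p = 0.443). Exons of Dbp overlap those of Sphk2 on the opposite strand. Nr1d1 had a difference of -0.96 ± 0.54, Nr1d2 one of -0.69 ± 0.37 and Per3 one of -0.41 ± 0.25, while Per1 was at 0.23 ± 0.40, Per2 at 0.24 ± 0.33 and Cry2, the other cryptochrome, at 0.29 ± 0.17. Without KO AP 3, KO sham 4 and KO sham 5 Nr1d1 was at -0.63 ± 0.59, Per1 at 0.59 ± 0.41 and Per2 at 0.41 ± 0.29. The period and cryptochrome genes thus lay on both sides of 0.

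**Figure D3:**
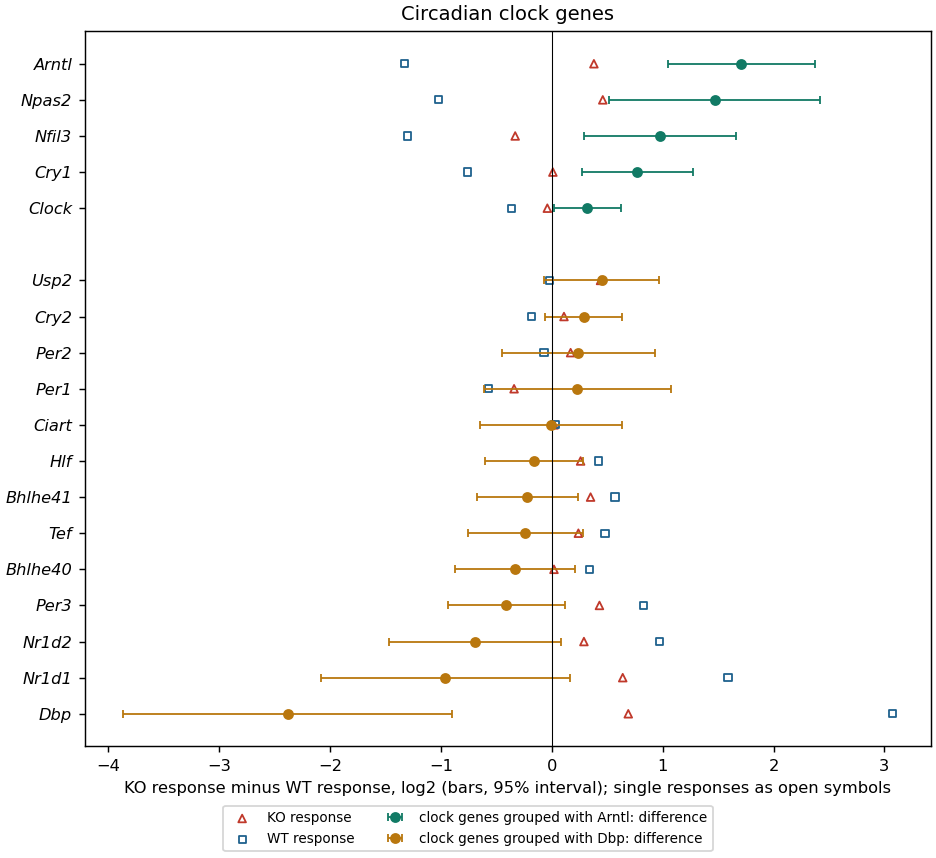
Clock genes in the lists grouped with Arntl (upper) and with Dbp (lower), with the difference of the responses (filled circles) and its 95% interval on the x axis in log2 units, and the KO response (triangles) and WT response (squares) of the same gene as open symbols. All 5 genes of the upper list lie to the right of 0, with Arntl at 1.71, and Dbp lies farthest to the left at -2.38.

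Markers of T and NK cells had negative differences throughout. In these bulk samples, fewer cells of a type and less RNA per cell cannot be told apart. All 22 tested genes of the list had a negative difference, beside 46.7% of all genes, and 15 had an unadjusted p under 0.05, beside 4.5% of all genes with a negative difference and such a p. The median was -1.12, beside 0.024 for all genes, and came from a median response of -0.64 in KO and 0.42 in WT. Without KO AP 3, KO sham 4 and KO sham 5 it was -0.64, with 20 of 22 negative, where 47.7% of all genes were, and 6 under an unadjusted p of 0.05, where 13.4% of all genes were. The genes of a list are read in the same libraries and are not independent of each other. These shares of all genes also stand beside the counts of the lists below. For positive differences they are 53.3%, and 4.16% with an unadjusted p under 0.05.

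Several cytotoxic and NK cell genes lay at the far end of this list, but not all of them. Klrb1c at -0.99, Tbx21 at -0.97 and Eomes at -0.49 were nearer 0 than its median. The T cell genes Cd3d and Trac were at -1.28 and -1.25, or -0.39 and -0.76 without the 3 libraries. Gzma, a granule protease, was at 8.4, 8.34, 21.5, 6.95 and 2.42 FPKM in KO AP, at 5.89, 21.8, 28.7, 48.9 and 35.7 FPKM in KO sham, at 96.4, 102, 59.8, 15.4 and 76.4 FPKM in WT AP and at 48.7, 22.9, 30.1, 26.2 and 27.2 FPKM in WT sham. The groups overlapped in each genotype, with KO sham 1 and WT AP 4 the lowest of their groups. The difference was -2.42 ± 0.76 (95% interval -4.00 to -0.84; limma adjusted p = 0.466). Ncr1, the NK cell receptor NKp46, averaged 0.774 ± 0.579 FPKM in KO AP, 1.44 ± 0.412 FPKM in KO sham, 4.29 ± 1.72 FPKM in WT AP and 1.81 ± 0.726 FPKM in WT sham, with a difference of -1.36 ± 0.36 (limma adjusted p = 0.442). Klrd1, the receptor chain CD94, had a difference of -1.32 ± 0.42, and Ccl5, a chemokine of cytotoxic cells, one of -2.14 ± 0.80.

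Mature neutrophil genes had the most negative median of the lists with all libraries, but not without KO AP 3, KO sham 4 and KO sham 5. All 22 had a negative difference and 8 an unadjusted p under 0.05, with a median of -1.36 from a response of -0.58 in KO and 0.72 in WT. The list took 0.0371% to 0.125% of the FPKM in KO AP, 0.0141% to 0.544% in KO sham, 0.138% to 0.164% in WT AP and 0.0285% to 0.0863% in WT sham. The range of KO sham thus held those of all other groups, with KO sham 4 at its top. Without KO AP 3, KO sham 4 and KO sham 5 the median difference was -0.74, again with 22 of 22 negative. There 5 had an unadjusted p under 0.05, where 13.4% of all genes did. In that setting 6 lists lay lower, with interferon gamma effectors lowest at -1.63. Stfa2l1, a stefin of neutrophils, was at 1.81, 2.14, 9.45, 2.55 and 3.27 FPKM in KO AP, at 1.96, 9.85, 2.44, 28.1 and 8 FPKM in KO sham, at 7.58, 3.43, 3.94, 5.77 and 3.65 FPKM in WT AP and at 0.57, 2.97, 1.94, 0.931 and 1.2 FPKM in WT sham. Its WT groups did not overlap. The difference was -2.12 ± 0.68 (limma adjusted p = 0.474).

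The neutrophil alarmin genes S100a8 and S100a9 each had a difference of -2.31, with errors of 0.97 and 1.01. Ly6g, the antigen used to recognise mouse neutrophils, was at -1.37 ± 0.57, the granule metalloproteinase Mmp9 at -1.43 ± 0.66 and Trem3, a myeloid receptor, at -1.24 ± 0.44. Padi4, which citrullinates histones, was at -0.47 ± 0.42. Without the 3 libraries S100a8 was at -1.16 ± 0.56, S100a9 at -1.12 ± 0.60, Mmp9 at -0.85 ± 0.41 and Trem3 at -0.72 ± 0.29. Of 6 genes of granule precursors 1 was tested, and Mpo and Elane, at most 2.65 and 1.64 FPKM in any library, were too low.

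Monocyte and macrophage genes had a median difference of -0.67, with 15 of 17 negative and 6 under an unadjusted p of 0.05. Without the 3 libraries the median was -0.57. The 3 chains of complement C1q were among them, with C1qb at -1.16 ± 0.41 and C1qc at -0.97 ± 0.30 beside C1qa above. Cx3cr1, the fractalkine receptor of patrolling monocytes, averaged 1.18 ± 0.459 FPKM in KO AP, 1.6 ± 0.664 FPKM in KO sham, 5.31 ± 2.09 FPKM in WT AP and 2.82 ± 0.951 FPKM in WT sham, and its difference was -0.94 ± 0.32 (limma adjusted p = 0.478). Genes of alveolar macrophages were closer to the background, with 10 of 14 negative and a median of -0.33. Among those, the integrin gene Itgax was at -1 ± 0.29 and the scavenger receptor gene Marco at -0.90 ± 0.38, or -0.47 ± 0.35 without the 3 libraries.

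Dendritic cell genes and genes of MHC class II, which shows peptides to CD4 T cells, formed a joint list. Its median was -0.84, with 13 of 14 negative and 6 under an unadjusted p of 0.05. All 6 were class II genes, and no dendritic cell marker was among them. H2-Aa was at 174, 138, 214, 124 and 69 FPKM in KO AP, at 125, 202, 274, 186 and 282 FPKM in KO sham, at 261, 276, 247, 202 and 207 FPKM in WT AP and at 153, 132, 122, 175 and 179 FPKM in WT sham. The WT groups did not overlap and the KO groups did. Its difference was -1.25 ± 0.35 (95% interval -1.99 to -0.52; limma adjusted p = 0.442). H2-Ab1, H2-Eb1 and the invariant chain Cd74 lay close to it, at -1.25 ± 0.37, -1.34 ± 0.41 and -1.39 ± 0.51. B and plasma cell genes had a median of -0.83, with 15 of 15 negative and 5 under an unadjusted p of 0.05, and of -0.36 without the 3 libraries, where 0 were under it. Jchain, which joins secreted antibodies, was at -1.35 ± 0.54 and Cd22 at -0.83 ± 0.33 with all libraries, and at -0.63 ± 0.43 and -0.49 ± 0.30 without the 3.

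Interferon-stimulated genes, the antiviral program of type I interferon, were negative in 24 of 24, with a median of -0.95 from a response of -0.60 in KO and 0.42 in WT. With all libraries 4 of them had an unadjusted p under 0.05. Without KO AP 3, KO sham 4 and KO sham 5 the median was -1.56 and 21 of the 24 were under it, where 13.4% of all genes were. KO AP 3 took 0.178% of its FPKM from this list, above the other KO AP libraries, whose median over the group was 0.0508%. KO sham 4 and KO sham 5 took 0.0759% and 0.076%. The KO sham libraries that stayed took 0.0563%, 0.209% and 0.192%, so the values without the 3 depend on which libraries were left out. Isg15, a ubiquitin-like modifier, was at 9.66, 6.94, 86.5, 16.5 and 7.88 FPKM in KO AP, at 16.9, 121, 79.4, 18.5 and 30.7 FPKM in KO sham, at 49.6, 33.4, 30.1, 7.63 and 21 FPKM in WT AP and at 13.6, 11.5, 14.4, 14.4 and 24.8 FPKM in WT sham. KO AP 3 lay apart from the other KO AP libraries, and KO sham 2 and 3 from the other KO sham libraries. Its difference was -1.95 ± 0.87 (limma adjusted p = 0.554) with all libraries and -3.03 ± 0.74 (adjusted p = 0.149) without the 3. Bst2, which tethers virions to the cell, was at -1.39 ± 0.40 and the nucleic acid sensor Zbp1 at -1.73 ± 0.82, which was -2.77 ± 0.60 without the 3.

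Genes of the interferon gamma program, the guanylate binding proteins and immunity-related GTPases, had a median of -0.80 with 13 of 14 negative and 0 under an unadjusted p of 0.05. Without the 3 libraries the median was -1.63 and 12 were under it. This list too was high in KO AP 3, at 0.144% of the FPKM beside 0.0199% in the median KO AP library. MHC class I and antigen processing genes had a median of -0.78 with 13 of 13 negative and 4 under an unadjusted p of 0.05, and -0.93 with 11 under it without the 3 libraries. The immunoproteasome subunit Psmb8 was at -1.25 ± 0.45, Psmb9 at -0.96 ± 0.41 and Psmb10 at -0.99 ± 0.35, and the class I heavy chain H2-K1 at -0.65 ± 0.30. Exons of Psmb9 overlap those of Tap1 on the opposite strand.

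Cell cycle genes had a median of -0.55, with 21 of 21 negative and 9 under an unadjusted p of 0.05. The KO response was -0.10 and the WT response 0.53 in the median. Birc5, a chromosomal passenger protein of mitosis, was at 4.51, 4.01, 4.54, 3.8 and 3.81 FPKM in KO AP, at 6.01, 4.18, 4.89, 6.42 and 9.91 FPKM in KO sham, at 4.75, 5.14, 2.6, 1.61 and 5.76 FPKM in WT AP and at 1.84, 1.27, 1.59, 1.13 and 2.91 FPKM in WT sham. The groups overlapped in each genotype, and WT AP 3 and 4 lay low in theirs. Its difference was -1.26 ± 0.34 (95% interval -1.96 to -0.56; limma adjusted p = 0.442). The proliferation marker Mki67 was at -0.98 ± 0.34, the replication factor Pclaf at -1.07 ± 0.36 and the ribonucleotide reductase subunit Rrm2 at -1.03 ± 0.40. Without the 3 libraries the list's median was -0.40, with 19 of 21 negative and 3 under an unadjusted p of 0.05, a share close to the 13.4% of all genes there.

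Of 21 inflammatory cytokines and chemokines 16 were tested, of which 11 had a negative difference. The median was -0.39, and under an unadjusted p of 0.05 there were 6 negative and 1 positive. Ccl3, a chemokine of macrophages and NK cells, averaged 0.457 ± 0.552 FPKM in KO AP, 1.13 ± 0.363 FPKM in KO sham, 1.51 ± 0.58 FPKM in WT AP and 0.732 ± 0.239 FPKM in WT sham, and its difference was -1.12 ± 0.28 (limma adjusted p = 0.442). Il1rn, the antagonist of the interleukin 1 receptor, was at -1.10 ± 0.35. Cxcl1, a neutrophil chemokine, had the positive difference, at 0.82 ± 0.35, which was 0.49 ± 0.34 without the 3 libraries, and averaged 0.598 ± 0.527 FPKM in KO AP, 0.614 ± 0.319 FPKM in KO sham, 0.591 ± 0.461 FPKM in WT AP and 1.93 ± 1.02 FPKM in WT sham. WT sham thus had the highest mean. Acute phase genes had 6 of 10 negative and a median of -0.24, with Lcn2, the siderophore-binding lipocalin, at -1.03 ± 0.44, or -0.44 ± 0.22 without the 3 libraries.

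Among stress-responsive lists, those of immediate early, glucocorticoid-responsive, heat shock and p53 genes had positive medians. Immediate early genes, transcribed within minutes of a stimulus, were positive in 16 of 19 with a median of 0.32, and 6 of them had an unadjusted p under 0.05. Nr4a1, an orphan nuclear receptor, averaged 53.6 ± 19.4 FPKM in KO AP, 26.3 ± 12.3 FPKM in KO sham, 13.5 ± 2.59 FPKM in WT AP and 25.6 ± 25.7 FPKM in WT sham, with a difference of 1.56 ± 0.55 (limma adjusted p = 0.499). Its WT sham mean rests largely on WT sham 1, at 71.4 FPKM, while the other WT sham libraries were at 11.2 to 18.1 FPKM. Egr1, a zinc finger factor, averaged 22.6 ± 5.31 FPKM in KO AP, 11 ± 5.22 FPKM in KO sham, 5.3 ± 1.2 FPKM in WT AP and 4.68 ± 1.48 FPKM in WT sham, with a difference of 0.87 ± 0.32. In Klf4 the step lay in WT, with 29.7 ± 11.9 FPKM in KO AP, 39.2 ± 27.9 FPKM in KO sham, 32 ± 7.26 FPKM in WT AP and 88 ± 23.4 FPKM in WT sham, with a difference of 1.20 ± 0.51. The list thus held genes of both forms.

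Glucocorticoid-responsive genes were positive in 17 of 21 with a median of 0.24, from -0.36 in KO and -0.60 in WT, and the median was 0.39 without the 3 libraries. In contrast to the leukocyte lists, the median responses of the genotypes had the same sign. Fkbp5 and Tsc22d3, direct targets of the receptor, had differences of -0.20 ± 0.55 and -0.05 ± 0.36, and of -0.07 ± 0.64 and 0.42 ± 0.33 without the 3 libraries. Cdkn1a, the cyclin-dependent kinase inhibitor p21 and also a target of p53, was at 64.5, 49.1, 47.6, 43 and 75.2 FPKM in KO AP, at 93.4, 109, 93.8, 57.8 and 44.1 FPKM in KO sham, at 82.6, 60.3, 42.2, 50.2 and 104 FPKM in WT AP and at 189, 269, 205, 172 and 277 FPKM in WT sham. WT sham lay above all 15 other libraries. The KO response was -0.46 ± 0.26 and the WT response -1.75 ± 0.26, a difference of 1.29 ± 0.37 (95% interval 0.52 to 2.05; limma adjusted p = 0.442). Other p53 targets with an unadjusted p under 0.05 were Btg2 at 0.85 ± 0.25 and the death receptor gene Tnfrsf10b at 0.87 ± 0.29. Bbc3, the apoptosis inducer PUMA, was the last of them at 0.47 ± 0.21. The list of 14 had 8 positive, beside 53.3% of all genes, and a median of 0.13.

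Heat shock and chaperone genes were positive in 12 of 15 with a median of 0.25, with Dnajb1 at 0.60 ± 0.20 and Hspa1b at 1.05 ± 0.50. Genes of the unfolded protein response went the other way, with 17 of 20 negative and a median of -0.47, and 1 under an unadjusted p of 0.05. Without the 3 libraries 19 of 20 were negative, the median was -0.72 and 11 were under it, and without KO sham 1 the median was -0.22. The gene under it with all libraries, the endoplasmic reticulum cochaperone Sdf2l1, averaged 23.1 ± 17.3 FPKM in KO AP, 53.7 ± 35.9 FPKM in KO sham, 9.13 ± 1.99 FPKM in WT AP and 8.37 ± 2.05 FPKM in WT sham, with a difference of -1.29 ± 0.61. NRF2 targets and glutathione enzymes were negative in 14 of 20 with a median of -0.22, and of -0.79 with 17 of 20 negative without the 3 libraries, but of 0.11 without KO sham 1. Glutathione reductase, Gsr, was at -0.71 ± 0.29 and the aldehyde oxidase Aox1 at 0.54 ± 0.24, or 0.30 ± 0.19 without the 3.

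In the epithelium, club and ciliated airway genes were positive in 15 of 18 with a median of 0.45, from 0.76 in KO and 0.21 in WT, and the median was 0.15 without the 3 libraries, with 12.4% of the FPKM in the median KO AP library and 5.36% in the median KO sham library. Cyp2f2, a cytochrome P450 of club cells, was at 1290, 2960, 802, 1340 and 2280 FPKM in KO AP, at 651, 905, 1120, 1060 and 209 FPKM in KO sham, at 1390, 1070, 1660, 1550 and 1300 FPKM in WT AP and at 1210, 1530, 1380, 1340 and 1420 FPKM in WT sham. The WT groups were level, and in KO the AP libraries were higher but for KO AP 3. The difference was 1.19 ± 0.54 (95% interval 0.07 to 2.31; limma adjusted p = 0.558). Scgb1a1, the main secretory protein of club cells, was at 0.63 ± 0.76 and the ciliary factor Foxj1 at 0.58 ± 0.45, and they were at 1.36 ± 0.65 and 0.03 ± 0.24 without the 3 libraries. Alveolar type 2 genes had a median of 0.10 with 9 of 15 positive. Sftpc was at -0.71 ± 0.60, or -0.17 ± 0.49 without the 3 libraries. The surfactant genes Sftpa1, Sftpb and Sftpd lay on the other side of 0, at 0.11 ± 0.42, 0.12 ± 0.29 and 0.19 ± 0.29. Without the 3 libraries these were at 0.65 ± 0.30, 0.43 ± 0.26 and 0.58 ± 0.25. Alveolar type 1 genes had a median of -0.11, with the water channel Aqp5 at -0.64 ± 0.25. Genes of stressed epithelium were negative in 14 of 14 with a median of -0.54, and Itgb6, the epithelial integrin that activates TGF-beta, was at -0.74 ± 0.20.

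The lists of barrier genes had medians near 0. Junction genes had a median of 0.04 with 9 of 14 positive, and Tjp3, a tight junction scaffold, was at 0.69 ± 0.29. Integrins and focal adhesion genes had a median of -0.07, and endothelial genes one of -0.13, each with 0 members under an unadjusted p of 0.05. Pecam1, the endothelial partner of CD177, had a difference of -0.19 ± 0.31 and Cdh5, the cadherin of endothelial junctions, one of -0.02 ± 0.40, and they were at 0.14 ± 0.29 and 0.19 ± 0.39 without the 3 libraries. Endothelial activation genes had a median of -0.23, or -0.09 without the 3. The 95% intervals, not adjusted for the number of genes tested, reached 0.6513 to either side for Pecam1 and 0.8397 for Cdh5. Passing the adjusted threshold would have taken a larger difference than that. Both genes lay lower in every KO library than in any WT library. Among ion and water channels, whose list had a median of 0.14, or 0.04 without the 3, Aqp4 was at 0.68 ± 0.24, or 0.36 ± 0.21 without them, and the sodium channel subunit Scnn1b at 0.65 ± 0.31.

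Matrix and fibroblast genes were negative in 21 of 23 with a median of -0.31, from -0.40 in KO and -0.05 in WT, and of -0.17 without the 3 libraries. Timp1, an inhibitor of metalloproteinases, was at 18.6, 5.32, 9.31, 14.9 and 4.83 FPKM in KO AP, at 39, 19.5, 15.3, 52.6 and 47.4 FPKM in KO sham, at 3.39, 3.65, 4.62, 5.02 and 3.78 FPKM in WT AP and at 6.93, 2.27, 3.17, 3.31 and 4.27 FPKM in WT sham. The WT groups were level and KO sham held the high values. Its difference was -1.72 ± 0.50 (95% interval -2.76 to -0.69; limma adjusted p = 0.442). The fibrillar collagen genes Col3a1 and Col1a1 were at -1.13 ± 0.36 and -0.81 ± 0.31. Smooth muscle and pericyte genes had a median of 0.14.

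Genes of fuel use and of detoxification had positive medians. Fasting and fatty acid oxidation genes were positive in 14 of 15 with a median of 0.38, from 0.35 in KO and -0.13 in WT, and 4 had an unadjusted p under 0.05. Without the 3 libraries 10 of 15 were positive and the median was 0.19. There 2 had an unadjusted p under 0.05, a share close to the 13.4% of all genes. The acyl-CoA thioesterase Acot1 averaged 28.3 ± 13.2 FPKM in KO AP, 15.3 ± 4.45 FPKM in KO sham, 41.3 ± 5.48 FPKM in WT AP and 55.1 ± 6.12 FPKM in WT sham, with a difference of 1.18 ± 0.32 (limma adjusted p = 0.442). The coactivator of mitochondrial genes Ppargc1a was at 0.35 ± 0.16, or 0.19 ± 0.15 without the 3, and the pyruvate dehydrogenase kinase Pdk4 at 1.38 ± 0.60, or 0.69 ± 0.36 without the 3 libraries. Cytochrome P450 and drug metabolism genes had a median of 0.45 with 13 of 17 positive, and of 0.16 without the 3 libraries. The carboxylesterase Ces1d was at 0.87 ± 0.27 and the retinal dehydrogenase Aldh1a1 at 0.63 ± 0.21. Lipid and cholesterol synthesis genes had a median of 0.01, and Fdps, an enzyme of the cholesterol pathway, was at -0.77 ± 0.30. Nuclear genes of the respiratory chain had a median of -0.04, or -0.23 without the 3 libraries, and RNA processing genes one of 0.16.

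Lists that follow blood content, tissue admixture and RNA composition also had medians away from 0, and their part in the results above was not tested. Hemoglobin and erythroid genes were negative in 8 of 8 with a median of -1.27, or -0.80 without the 3 libraries, and took 0.219% to 0.554% of the FPKM in KO AP, 0.186% to 2.07% in KO sham, 1.0% to 3.42% in WT AP and 0.97% to 3.1% in WT sham. Hbb-bs was at -1.67 ± 0.80, or -1.08 ± 0.78 without them, and the hemoglobin genes have near-identical copies between which reads can be split. Cytosolic ribosomal protein genes were negative in 20 of 20 with a median of -0.47 and 0 under an unadjusted p of 0.05, in a narrow span of -0.73 to -0.31. Mitochondrially encoded genes had a median of 0.33, and -0.13 without the 3 libraries, with 4.41% to 12.7% of the FPKM in KO AP, 1.82% to 7.64% in KO sham, 4.5% to 10% in WT AP and 4.24% to 5.8% in WT sham.

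Cardiac muscle genes had a median of 0.73 with all libraries and of -0.04 without KO AP 3, KO sham 4 and KO sham 5, and adipocyte genes 0.34 and -0.80. KO AP 3 took 0.635% of its FPKM from the cardiac list and 0.588% from the adipocyte list, where the median KO AP library took 0.0591% and 0.0117%. Without these libraries the endothelial, integrin and alveolar type 1 medians also had the other sign, at 0.23, 0.11 and 0.09, as did those of p53 targets at -0.05, smooth muscle genes at -0.03, junction genes at -0.01 and lipid synthesis genes at -0.15. The medians of T and NK cell, neutrophil, interferon, MHC class I and cell cycle genes kept theirs. So did those of the joint dendritic cell and MHC class II list and of the clock genes grouped with Arntl. Of 41 lists with at least 3 tested genes, 24 had a negative and 17 a positive median difference with all libraries, over 628 genes in all. The pancreatic acinar list had 1 of 11 genes tested.

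**Figure D4:**
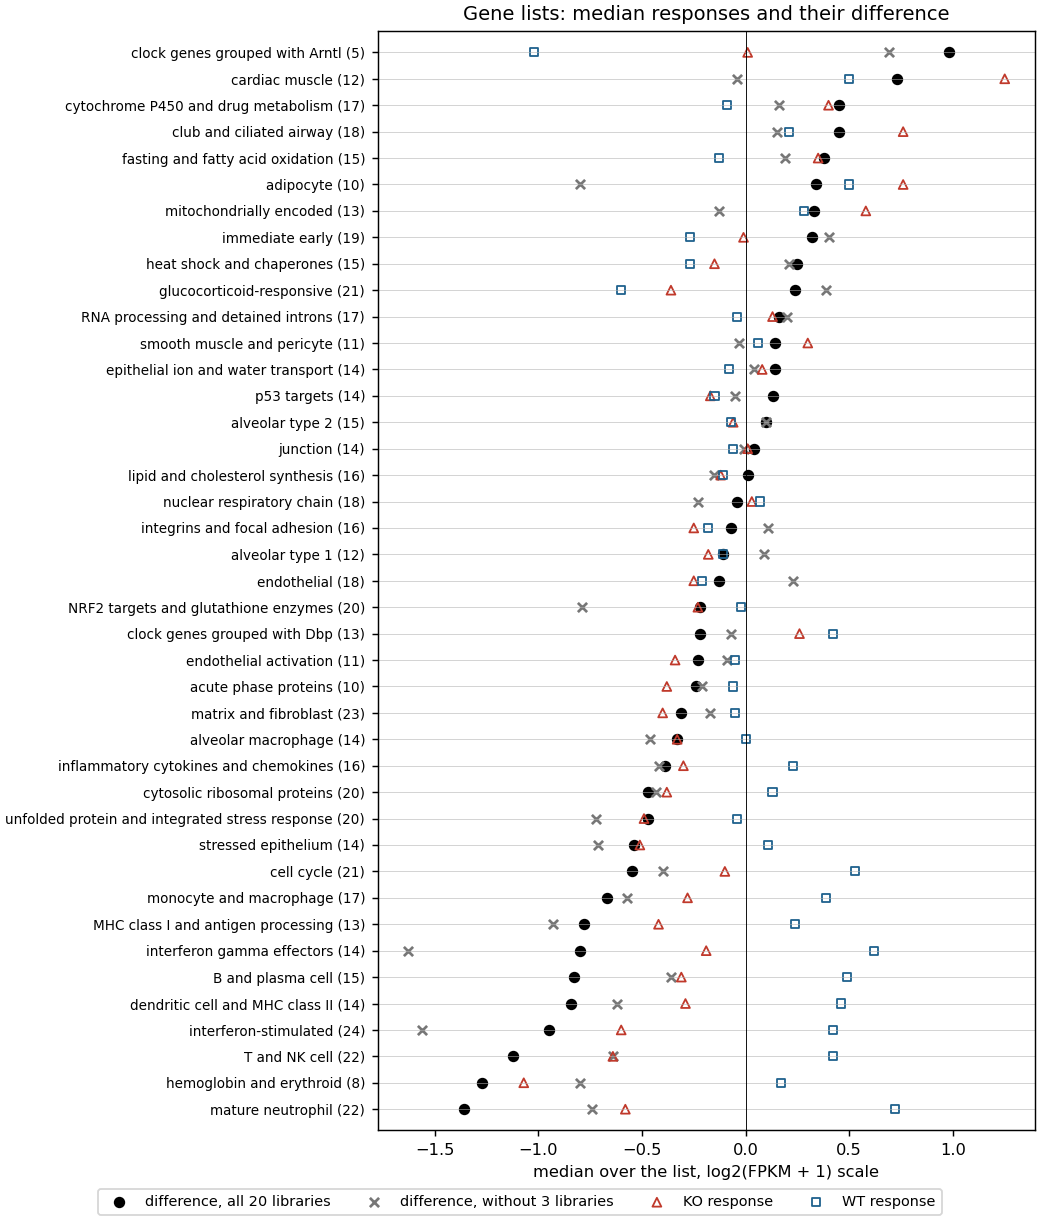
Median over each gene list (number of tested genes in brackets) of the difference of the responses with all 20 libraries (black) and without KO AP 3, KO sham 4 and KO sham 5 (crosses), and of the KO response (triangles) and WT response (squares), on the log2(FPKM + 1) scale. With all libraries the mature neutrophil list lies lowest at -1.36 and the list of clock genes grouped with Arntl highest at 0.98. Crosses lie on the other side of 0 for cardiac muscle, adipocyte, mitochondrially encoded, endothelial and integrin genes. They also do so for alveolar type 1, p53 target, smooth muscle, junction and lipid synthesis genes.

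**Figure D5:**
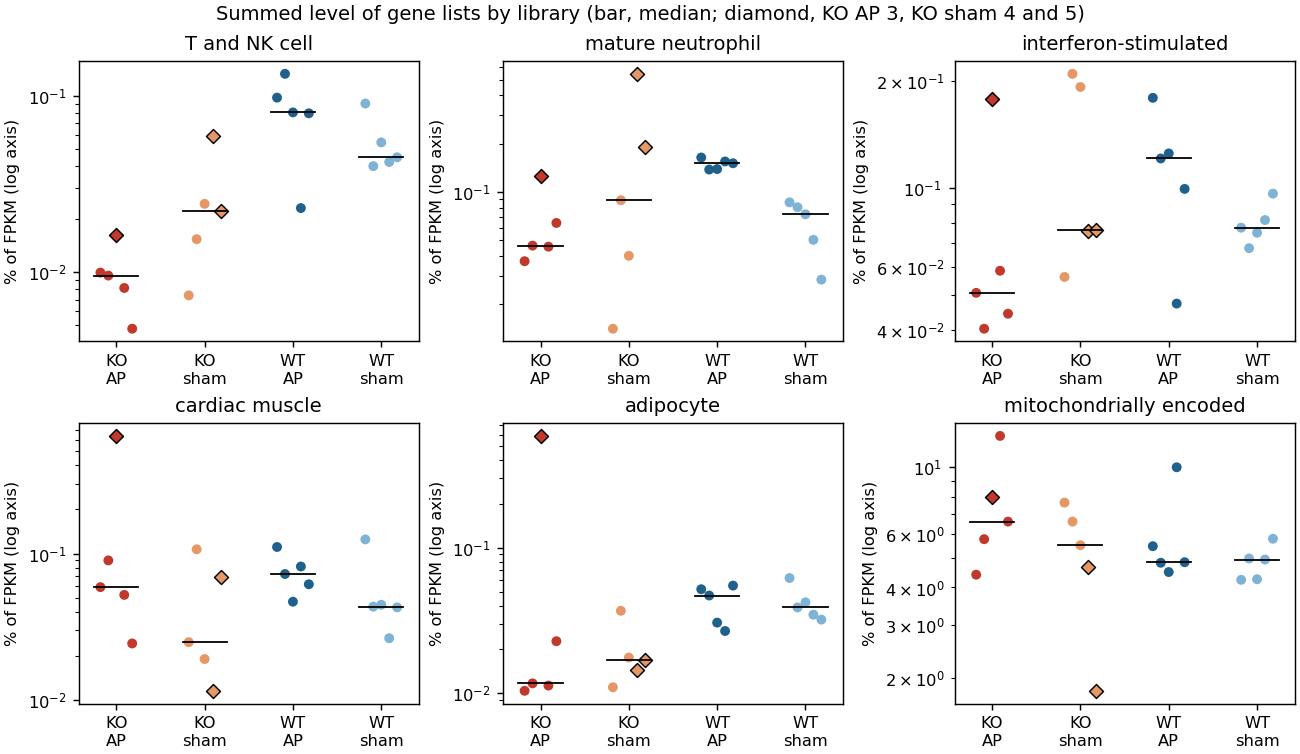
Share of the summed FPKM of each library taken by 6 gene lists (log axis, percent), by group with KO AP and KO sham left of WT AP and WT sham; bars are medians of 5 libraries and diamonds mark KO AP 3, KO sham 4 and KO sham 5. The cardiac and adipocyte shares of KO AP 3 reach 0.635% and 0.588%, far above the other libraries, and the neutrophil shares of KO sham run between 0.0141% and 0.544%.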

How the data were processed

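Lung RNA was enriched for mRNA and sequenced on an Illumina platform, per the labels' protocols. The submitters' processing notes name HISAT2 (2.1.0), StringTie (1.3.3b) and mm39 but give them no roles. Which annotation and strand setting were used is not given in the sources used here. The authors deposited FPKM, scaled to transcript length and sequencing depth, for 55357 genes. Symbols were found for 52081 of them. Library totals were recovered from the step between low values of single-transcript genes, of which 98.8% to 99.5% came out as whole reads within 0.05 read. Counts of other genes could not be recovered, so no count test was run.

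Libraries were grouped by the labels' genotype and treatment. The filter of 1 FPKM in 4 libraries left 15978 genes, whose log2(FPKM + 1) values entered limma 3.58.1 (R 4.3.3) with 4 group means and a variance trend. The contrast was the KO response minus the WT response, two-sided, with Benjamini-Hochberg adjustment over all genes tested and a threshold of 0.05. This step was tested on simulated data with the same spread in every group. In the lung libraries KO spread more than WT, so the simulation does not show how that affects the p-values. Named genes were Cd177, then in each direction the 10 lowest p among genes whose mean reached 2 FPKM in some group, without predicted genes, pseudogenes and antigen receptor segments, then up to 4 members of each list by lowest p. The last step was narrowed during the analysis to members with an unadjusted p under 0.05. Members outside this rule (Nr1d1, Nr1d2, Per1, Per2, Per3, Cry2, Clock, Fkbp5, Tsc22d3, Mmp9, Padi4, S100a8, S100a9, Pecam1, Cdh5, Sftpc, Scgb1a1, Foxj1 and Hbb-bs) were picked after their values were seen. The same holds for Klrb1c, Tbx21, Eomes, Cd3d, Trac, Sftpa1, Sftpb and Sftpd. The members and the 43 gene lists were chosen with earlier results of these data known. Of the 99 genes the rule gave, 22 share exon bases with another annotated gene, 18 of them on the opposite strand. Transcript lengths and exon overlaps came from GENCODE M21, and promoters from RefSeq, both on GRCm38. Some list members are not reported here. Alternatives changed the pseudocount, the filter, the scaling, the variance model and the libraries used.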

Additional observations from a re-analysis of the deposited data

Results flagged for a closer look

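Of 150 sets of 5 libraries examined, 126 for genes and 24 for list shares, 19 held a library set apart from the other 4 of its group by a gap of more than 0.71 of the range. For independent sets of normally distributed values, chance gives about 1 in 20. These sets share the same 20 libraries and hold untransformed FPKM or shares of it, so their number cannot be judged against it. Of the 19 sets 11 were KO and 8 were WT.

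KO AP 3 accounted for several of them. Its cardiac muscle genes took 0.635% of the FPKM and its adipocyte genes 0.588%, where the other KO AP libraries reached at most 0.0899% and 0.0228%. Its interferon-stimulated genes took 0.178%, against at most 0.0586% in the others. Isg15 was at 86.5 FPKM and Stfa2l1 at 9.45 FPKM in the same library.

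In KO AP, Clec12a was low at 3.06 FPKM and Serpinb9 at 16.8 FPKM in KO AP 5, and Chaf1b at 1.43 FPKM in KO AP 2. In KO sham, Ptprcap was high at 22.8 FPKM in KO sham 5, Rad9b at 1.68 FPKM in KO sham 4 and the adipocyte share at 0.0369% in KO sham 2.

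In WT AP, Chaf1b was low at 1.39 FPKM in WT AP 4, where mitochondrially encoded genes took 10% of the FPKM, and Npas2 was high at 2.69 FPKM in WT AP 2. In WT sham, WT sham 1 was high for Ptprcap at 2.49 FPKM, for Gzma at 48.7 FPKM, for the share of T and NK cell genes at 0.0903% and for the cardiac share at 0.125%. Isg15 was high at 24.8 FPKM in WT sham 5.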

How the results depend on the processing

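Over 33 alternatives, 20 of which left out 1 library, the count of genes past the threshold stayed between 0 and 2, against 0 with all libraries. It was 1 with a pseudocount of 0.1 (Ighj3), 1 with library weights by genotype (Gm9747), 1 without KO AP 3, KO sham 4 and KO sham 5 (Kcnj13), 1 without KO AP 3 (Kcnj13), 1 without WT sham 1 (Igkj4) and 2 without KO sham 2 (Gm9747 and Irs1), and 0 in each other alternative. Of the 99 named genes, 0 passed with all libraries, 1 without the 3 libraries, and 0 to 1 when 1 library was left out. The cause was not tested. All 99 kept the sign of their difference in every alternative in which they were tested. This was largely fixed in advance. All but Cd177 were chosen for a low p of this same difference, and the alternatives reuse the same libraries. Genes with an unadjusted p under 0.05 numbered 1384 with all libraries, 1044 without WT AP 2, 2110 without KO AP 3, 2139 without the 3 libraries, and 2224 of 36781 without a filter on low values. Without KO sham 1 alone they numbered 1911. On the TPM scale the median difference of all genes was 0.082, and with the length trend removed it was -0.012. Of the list medians, 6 of the values under alternatives moved by more than the spread between libraries. These were, without the 3 libraries, 0.69 for clock genes grouped with Arntl and 0.16 for cytochrome P450 genes. For cytokines the value was -0.74 under the stricter filter. For dendritic cell and MHC class II genes the values were -0.62 without the 3 libraries, -0.64 without KO AP 5 and -0.62 without KO sham 5. In alternatives other than leaving out all 3 libraries, the medians of NRF2, adipocyte, alveolar type 2, endothelial, integrin, junction, lipid synthesis and respiratory chain genes each had the other sign at least once.

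With the replicate number as a block 0 genes passed and 1271 had an unadjusted p under 0.05. The replicate numbers did not pair the libraries: over 30 pairs with the same number the correlation of their deviations lay between -0.32 and 0.386, with 6 over 0.1, and 13 of 60 best matches had the same number. With 5 libraries a group, the 95% interval of the difference, not adjusted for the number of genes tested, reached 0.480 to either side in the median gene. A difference would have had to be larger than that to pass the adjusted threshold.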
